A study of Mus musculus with 6 samples.

Results

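Runx1, its partner Cbfb, the 4 class IIa histone deacetylases Hdac4, Hdac5, Hdac7 and Hdac9, and the adhesion molecule Ncam1 were followed in the tibialis anterior (TA) muscle of old mice given vehicle or BML-260. These 7 genes were taken by symbol from 45777 genes in the count table, as regulators and markers of the response of muscle to denervation. They were chosen by their difference between the groups in these libraries (the counts and TPM of BML-260 against vehicle), so their own fold changes are given as a description, without a test. All 7 passed the filter on low counts. RNA was sequenced in 3 libraries from mice given vehicle (DMSO with a polysorbate detergent) and 3 libraries from mice given BML-260, the compound used in the study to inhibit the phosphatase DUSP22, at 5 mg/kg injected into the peritoneum daily for about 1 month. All 6 libraries came from male C57BL/6J mice, recorded with an age of 24 months in the sample labels, while the study's text gives other ages too. The labels name no nerve injury and no group of young mice. The labelled tissue held 67694 to 99024 TPM (a transcript level scaled for gene length and for the library's total) over 6 fast muscle fiber markers, among them Ckm and Myh4.

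In innervated fibers, class IIa histone deacetylases are held in the cytoplasm by phosphorylation and by 14-3-3 proteins, and in the nucleus they repress MEF2 transcription factors. When a muscle loses its nerve, Hdac4 accumulates, the repressor Dach2 falls, and myogenin (Myog) rises and turns on acetylcholine receptor genes and ubiquitin ligases. Runx1 is a runt-domain transcription factor that binds DNA together with Cbfb. It is scarce in innervated muscle, is strongly induced by denervation and limits the wasting of denervated fibers. Ncam1 encodes a surface adhesion molecule that is found at the neuromuscular junction and on satellite cells and spreads over the fiber after denervation. Both Runx1 and Ncam1 are made by other cells of a muscle too, Runx1 by blood cells and Ncam1 by Schwann cells.

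The libraries held between 39522890 and 56998875 counts. Of 16188 genes tested with edgeR's quasi-likelihood test, 0 had an adjusted p under 0.05, beside 966 (5.97%) with an unadjusted p under 0.05, and DESeq2's Wald test gave 95 genes an adjusted p under 0.05. A further threshold, an unadjusted p under 0.05 with a fold change of at least 1.3, was passed by 931 genes (5.75%), 145 higher (0.896%) and 786 lower (4.86%) with BML-260. This is the threshold meant below, and genes that passed it alone did not pass after adjustment over all genes. Vehicle replicate 3 stood apart, with correlations of log2 CPM (counts scaled to library size) of 0.940 to 0.948 to the other libraries, where those among the other 5 libraries were 0.972 to 0.985. Some results are therefore given without it as well.

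**Figure D1:**
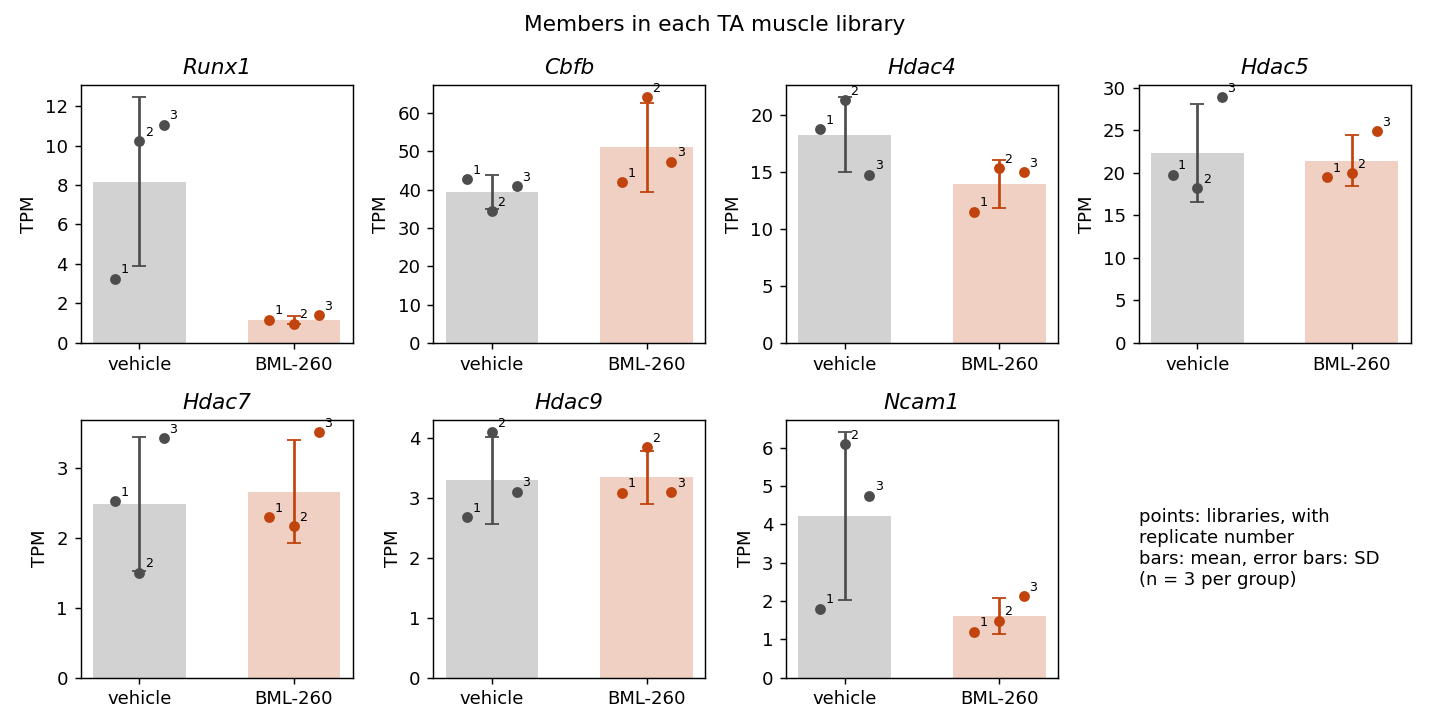
TPM of the 7 genes in the 3 vehicle and the 3 BML-260 libraries, with points for libraries numbered by replicate, bars for means and error bars for the SD. Runx1 is lower in every BML-260 library than in any vehicle library, Ncam1 is high only in vehicle replicates 2 and 3, and the 4 HDAC genes overlap between the groups.

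Runx1 (gene identifier 12394, chr16:92601466-92826074 in the RefSeq annotation of GRCm38.p6, the assembly that mm10 names) differed most between the groups among the 7 genes. Its TPM was 3.26, 10.2 and 11.05 in vehicle replicates 1, 2 and 3, and 1.17, 0.979 and 1.39 in BML-260 replicates 1, 2 and 3. Every BML-260 library lay below every vehicle library, and the lowest vehicle library was 2.34 times as high as the highest BML-260 library in TPM. The vehicle mean of 8.17 ± 4.28 TPM (SD, n = 3) stood against a BML-260 mean of 1.18 ± 0.206 TPM (SD, n = 3). On the counts, which were 688, 1614 and 2063 with vehicle and 297, 192 and 221 with BML-260, the log2 fold change of BML-260 over vehicle was -2.57 (standard error 0.39). Scaled to a common depth by TMM, vehicle replicate 2 was the highest library (44.4 CPM) and vehicle replicate 3 came next (32.9 CPM), so the order of these 2 libraries depends on the unit. Without vehicle replicate 3 the log2 fold change was -2.50, and leaving out each library in turn gave values from -2.91 to -2.20.

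Runx1 has a distal and a proximal start site, and the windows around both are shown because Runx1 is the member that differed most and because the sites differ in base composition and in runt motifs. Each window runs from 250 bases before to 50 bases after an annotated start, read 5′ to 3′ on the gene's strand, from RefSeq on GRCm38.p6. Capitals mark matches to 4 motifs searched on both strands: the runt motif TGTGGT, the E-box CAGCTG, the AP-1 motif TGANTCA and a loose MEF2 pattern, CTA and TAG with any 4 bases between them, which is wider than the MEF2 consensus. The GC box GGGCGG was counted too and is not capitalized. None of these matches was tested for binding.
Runx1 distal start, chr16:92826025-92826324, minus strand: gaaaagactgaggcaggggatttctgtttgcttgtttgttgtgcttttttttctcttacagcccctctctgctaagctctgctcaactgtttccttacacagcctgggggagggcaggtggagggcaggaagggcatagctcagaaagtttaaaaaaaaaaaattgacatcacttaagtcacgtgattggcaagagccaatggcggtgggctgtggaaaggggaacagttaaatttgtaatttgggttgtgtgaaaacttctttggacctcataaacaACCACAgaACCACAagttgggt
Runx1 proximal start, chr16:92697280-92697579, minus strand: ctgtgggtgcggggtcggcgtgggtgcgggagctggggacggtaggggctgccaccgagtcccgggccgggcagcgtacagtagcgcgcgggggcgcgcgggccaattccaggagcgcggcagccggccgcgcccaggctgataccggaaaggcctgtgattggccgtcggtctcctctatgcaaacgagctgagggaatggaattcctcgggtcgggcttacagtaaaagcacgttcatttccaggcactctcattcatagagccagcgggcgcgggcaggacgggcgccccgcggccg
The distal window held 2 runt motifs, in the reverse orientation and both downstream of the start, at 28 and 36 bases from it, with 2 CpG dinucleotides and a GC content of 45%. The proximal window held none of the 4 motifs, with 35 CpG dinucleotides and a GC content of 69%. Of 32851 promoter windows of the same length, 16.8% held the runt motif, 16.3% the E-box, 7.81% the AP-1 motif, 3.69% the loose MEF2 pattern and 35.7% the GC box. Counts and TPM were deposited per gene, so the use of either start cannot be read from these values.

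Cbfb (12400, chr8:105170674-105217989), the non-DNA-binding partner that stabilizes runt-domain proteins on DNA, was the most abundant member. Its TPM was 42.6, 34.3 and 40.9 in vehicle replicates 1, 2 and 3, and 41.9, 64.1 and 47.3 in BML-260 replicates 1, 2 and 3. The groups overlapped in TPM, because vehicle replicate 1 lay above BML-260 replicate 1. In CPM after TMM scaling they did not overlap, with 51.7 to 75.3 in vehicle and 80.9 to 109 in BML-260 libraries. The log2 fold change was 0.51 (standard error 0.19), opposite in sign to that of Runx1. It stayed above 0 in all 14 alternatives, between 0.00337 and 0.65, with the value nearest to 0 from DESeq2 with apeglm shrinkage. Cbfb transcripts were in excess of Runx1 transcripts in every library, per length: the TPM ratio of Cbfb to Runx1 was 13.1, 3.36 and 3.70 with vehicle and 35.9, 65.5 and 34.0 with BML-260. An annotated lncRNA, AI225912, overlaps Cbfb and had 76 to 109 counts per library, against 2320 to 5114 for Cbfb. The strand setting of the counting is not given in the sources used here, so reads of the pair may have been exchanged.

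Ncam1 (17967, chr9:49502129-49799393) was low in vehicle replicate 1 and in all BML-260 libraries, and high in the remaining 2 vehicle libraries. Its TPM was 1.80, 6.10 and 4.74 in vehicle replicates 1, 2 and 3, and 1.20, 1.49 and 2.13 in BML-260 replicates 1, 2 and 3. The groups overlapped, since BML-260 replicate 3 lay above vehicle replicate 1. The vehicle mean was 4.22 ± 2.20 TPM (SD, n = 3), the BML-260 mean was 1.61 ± 0.474 TPM (SD, n = 3), and the log2 fold change on counts was -1.34 (standard error 0.42). Vehicle replicate 2 carried much of this value: without it the log2 fold change was -0.80, and without vehicle replicate 1 it was -1.70. With DESeq2 and apeglm shrinkage it was -0.00229. Runx1 and Ncam1 did not change in a fixed proportion. The TPM ratio of Runx1 to Ncam1 was 1.80, 1.67 and 2.33 with vehicle and 0.969, 0.658 and 0.653 with BML-260.

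**Figure D2:**
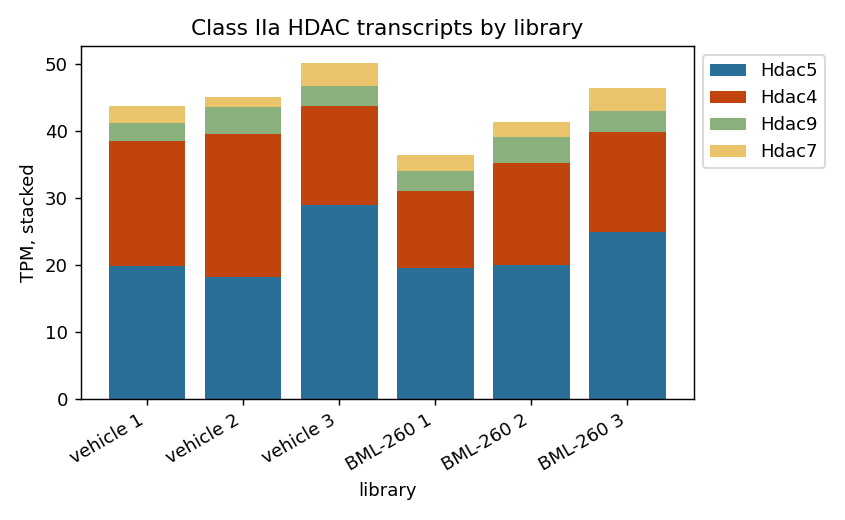
Stacked TPM of the 4 class IIa HDAC genes in each of the 6 libraries. The sum lies between 36.4 and 50.2 TPM, Hdac5 and Hdac4 make up most of it in every library, and the groups overlap. The sum is highest in vehicle replicate 3, although Hdac4 and Hdac9 are lowest in that library in CPM.

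Among the class IIa histone deacetylases, Hdac5 and Hdac4 held most of the transcripts in this muscle. Summed over the 4 genes, the vehicle level was 46.3 ± 3.39 TPM (SD, n = 3) and the BML-260 level was 41.4 ± 5.05 TPM (SD, n = 3). Hdac5 held 47.7% ± 8.86 (SD, n = 3) of this sum in the vehicle group and 51.7% ± 3.03 (SD, n = 3) in the BML-260 group. Hdac4 held 39.9% ± 9.27 (SD, n = 3) and 33.7% ± 3.00 (SD, n = 3) in these groups. The remainder was Hdac9, with 6.14% to 9.34% per library, and Hdac7, with 3.33% to 7.56%. These shares overlapped between the groups for each of the 4 genes. The highest sum, 50.2 TPM, was that of vehicle replicate 3. In CPM after TMM scaling, that library was the lowest of the 6 for Hdac4 (56.1) and Hdac9 (9.60). Within the vehicle group it was the lowest for Hdac7 (8.48) and the highest for Hdac5 (50.1). The place of this library therefore depends on the unit.

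Hdac4 (208727, chr1:91928779-92195702), the member that accumulates in denervated muscle, had a TPM of 18.8, 21.3 and 14.8 in vehicle replicates 1, 2 and 3. In BML-260 replicates 1, 2 and 3 it was 11.5, 15.3 and 15.0. Vehicle replicates 1 and 2 lay above all BML-260 libraries, whereas vehicle replicate 3 lay within their range in TPM. In CPM vehicle replicate 3 (56.1) lay below every BML-260 library (65.9 to 77.1). The log2 fold change was -0.33 (standard error 0.26), and single libraries decided its size. Without vehicle replicate 3 it was -0.58. Without vehicle replicate 2 it was -0.099. The lncRNA LOC108167659 overlaps Hdac4 and had 192 to 364 counts per library, against 2911 to 4913 for Hdac4.

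Hdac5 (15184, chr11:102195747-102230172), which like Hdac4 binds MEF2 factors and is exported from the nucleus after phosphorylation, had a TPM of 19.8, 18.2 and 28.9 with vehicle. With BML-260 it had a TPM of 19.5, 19.9 and 24.9. The groups overlapped, and the log2 fold change was 0.090 (standard error 0.14). It turned to -0.036 in limma's test on the deposited TPM, on the log2 scale, whether 1 or 0.1 was added first, where the median of all genes was -0.089 and -0.14. Hdac5 varied little among the vehicle libraries on log2 CPM, with an SD of 0.071 that was below that of all but 4.50% of tested genes.

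Hdac7 (56233, chr15:97792661-97844502), which is prominent in endothelial cells and thymocytes, had a TPM of 2.53, 1.504 and 3.43 with vehicle and 2.299, 2.17 and 3.51 with BML-260. Hdac9 (79221, chr12:34047580-34917095), whose short form without a catalytic domain represses MEF2 in muscle, had a TPM of 2.69, 4.11 and 3.11 with vehicle and 3.09, 3.86 and 3.10 with BML-260. Both genes overlapped between the groups. The log2 fold changes were 0.086 (standard error 0.20) for Hdac7 and 0.055 (standard error 0.21) for Hdac9. With each library left out in turn they lay between -0.082 and 0.26 for Hdac7 and between -0.076 and 0.31 for Hdac9, so neither had a settled sign. Hdac7 overlaps Slc48a1, a gene with more counts (643 to 1234 per library against 339 to 532), which makes its small values less certain.

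Start windows of the class IIa genes are shown for Hdac4, Hdac5 and Hdac9, to set windows with the loose MEF2 pattern beside one without. The contrast is between these windows and not between the genes. The Hdac4 window lies inside the gene, whose annotated 5′ end on the minus strand is at 92195702. The upstream Hdac9 window, chr12:34917046-34917345, is not shown. It held 1 E-box, at position -89, and no match to the loose MEF2 pattern. The windows and capitals are as for Runx1.
Hdac4, chr1:92180292-92180591, minus strand: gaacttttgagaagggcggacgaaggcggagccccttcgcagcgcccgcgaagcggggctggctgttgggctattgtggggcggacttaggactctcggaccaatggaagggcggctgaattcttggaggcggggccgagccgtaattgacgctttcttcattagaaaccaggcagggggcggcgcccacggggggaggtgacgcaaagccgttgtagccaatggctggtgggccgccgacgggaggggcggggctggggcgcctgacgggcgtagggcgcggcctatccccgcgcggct
Hdac5, chr11:102230123-102230422, minus strand: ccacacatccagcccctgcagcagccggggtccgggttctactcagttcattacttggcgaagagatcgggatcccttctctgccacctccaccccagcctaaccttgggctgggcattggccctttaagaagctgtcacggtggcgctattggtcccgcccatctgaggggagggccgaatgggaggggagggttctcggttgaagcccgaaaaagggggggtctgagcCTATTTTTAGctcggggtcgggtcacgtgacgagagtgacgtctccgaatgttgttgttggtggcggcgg
Hdac9 downstream start, chr12:34528840-34529139, minus strand: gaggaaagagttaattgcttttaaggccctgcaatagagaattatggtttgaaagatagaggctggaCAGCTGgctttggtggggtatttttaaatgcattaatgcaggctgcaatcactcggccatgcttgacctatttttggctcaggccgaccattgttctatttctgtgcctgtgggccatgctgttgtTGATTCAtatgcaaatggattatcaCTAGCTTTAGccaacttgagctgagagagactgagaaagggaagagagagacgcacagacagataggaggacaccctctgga
The Hdac5 window held 1 match to the loose MEF2 pattern, at position -20 from the start, and 1 GC box. The downstream Hdac9 window held 1 match to each of the E-box, the AP-1 motif and the loose MEF2 pattern, at positions -183, -57 and -32. The Hdac4 window held none of the 4 motifs, with 32 CpG dinucleotides and 5 GC boxes. In all, 11 windows were found for 6 of the 7 members. The only runt motifs in them were the 2 of the distal Runx1 window.

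In order of level, the vehicle group ran Cbfb, Hdac5, Hdac4, Runx1, Ncam1, Hdac9 and Hdac7 by mean TPM. Ranges of neighbours overlapped for Hdac5 and Hdac4, for Runx1 and Ncam1, for Ncam1 and Hdac9, and for Hdac9 and Hdac7. In the BML-260 group Runx1 was the lowest member and Ncam1 the next lowest, with overlapping ranges, and Hdac9 (3.35 ± 0.440 TPM, SD, n = 3) and Hdac7 (2.66 ± 0.741 TPM, SD, n = 3) lay above both. Cbfb, Hdac5 and Hdac4 kept the first 3 places. Without vehicle replicate 3, the vehicle mean was 6.73 TPM for Runx1, 3.95 for Ncam1, 20.0 for Hdac4 and 19.0 for Hdac5, which exchanged the places of Hdac4 and Hdac5.

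Over the 7 genes, 3 passed the threshold (Runx1 and Ncam1 lower, Cbfb higher), beside 5.75% of all tested genes, and 2 had groups without overlap in CPM, beside 12.1% of all tested genes. Of these 2, Cbfb was higher (5.23% of all tested genes) and Runx1 lower (6.91%) with BML-260. Log2 fold changes were above 0 for 4 members, beside 49.5% of all tested genes. Vehicle replicate 3 was the highest library in CPM for 0 members, beside 31.4% of all tested genes. The rule used this contrast, so nothing is read from these counts. The median log2 fold change was 0.055 over the 7 genes and -0.0039 over all tested genes. The members also differed in how much they varied among the 3 vehicle libraries. The SD of log2 CPM in this group was 0.95 for Ncam1 and 0.86 for Runx1, above that of 92.2% and 90.1% of tested genes. It was 0.57 for Hdac4, 0.39 for Hdac9, 0.27 for Cbfb and 0.12 for Hdac7, with 0.31 as the median of all tested genes. Among the BML-260 libraries the SD was 0.28 for Ncam1 and 0.27 for Runx1, and the median of all genes was 0.19.

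**Figure D3:**
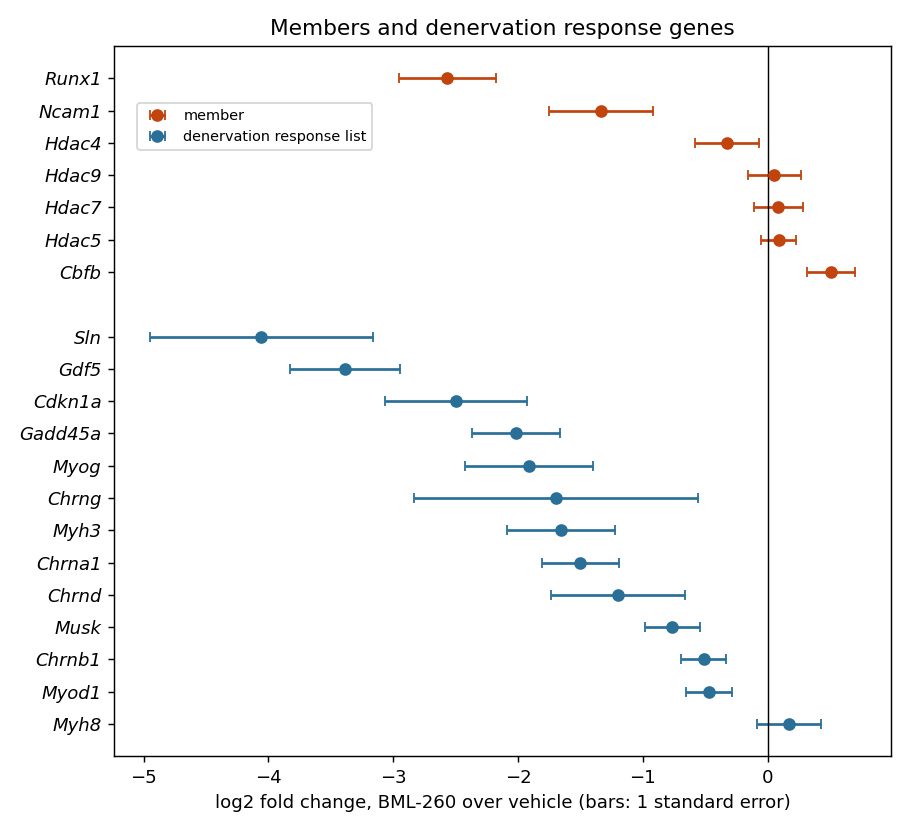
Log2 fold change of BML-260 over vehicle on the x axis for the 7 members and for 13 of the 14 denervation response genes, with bars of 1 standard error from edgeR. Runx1 (-2.57) and Ncam1 (-1.34) lie within the range of the listed genes, 12 of which are below 0, and the 4 HDAC genes lie between -0.33 and 0.090.

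Genes that are known to respond to denervation were listed apart from the members: myogenic factors, acetylcholine receptor subunits, the muscle-specific kinase Musk, developmental myosins, and genes such as Gadd45a, Gdf5, Cdkn1a and Sln. Of the 14 genes, 13 were lower and 1 was higher with BML-260, and the median log2 fold change was -1.68. In the lower direction 11 passed the threshold, beside 4.86% of all tested genes, and in the higher direction 0, beside 0.896%. In 10 of the 14 genes the groups did not overlap, beside 12.1% of all tested genes. After adjustment over all genes by the Benjamini-Hochberg method 0 of the 14 passed in edgeR, beside 11 with an unadjusted p under 0.05. Without vehicle replicate 3, 12 of the 14 passed the threshold in the lower direction, beside 2.92% of the 16502 genes tested then. Earlier results of these data were known when the list was written, so it is not independent evidence of a direction.

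Myog, the transcription factor through which Hdac4 acts on receptor genes, had a TPM of 7.89, 10.5 and 43.8 with vehicle and 2.94, 3.89 and 6.64 with BML-260. Its log2 fold change was -1.91 with a standard error of 0.51 (edgeR, Benjamini-Hochberg adjusted p = 0.649), and -1.08 without vehicle replicate 3. Runx1 was nearly as high in vehicle replicate 2 as in replicate 3, whereas Myog was high in replicate 3 alone. Myod1, a related myogenic factor, had a log2 fold change of -0.47.

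Of the acetylcholine receptor genes, Chrna1, the alpha subunit that all forms of the receptor share, had a TPM of 5.28, 13.1 and 12.4 with vehicle and 2.76, 3.39 and 3.66 with BML-260. As for Runx1, the groups did not overlap and vehicle replicate 1 was the lowest of its group. Its log2 fold change was -1.50 with a standard error of 0.31 (edgeR, Benjamini-Hochberg adjusted p = 0.553). Chrnb1, the beta subunit, had a log2 fold change of -0.51. Chrnd, the delta subunit, had one of -1.20 (standard error 0.54) and did not pass the threshold. Chrng, the fetal gamma subunit, had 0 to 51 counts per library and did not pass either. Musk, which organizes the postsynaptic membrane, had a log2 fold change of -0.76.

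The remaining genes of the list include those with the largest differences. Sln, which encodes an inhibitor of the sarcoplasmic reticulum calcium pump, had a TPM of 12.5, 208 and 114 with vehicle and 4.99, 9.58 and 3.92 with BML-260. Its log2 fold change was -4.06, and within the vehicle group its CPM spanned 17.5-fold. Gdf5, a bone morphogenetic protein ligand, had a log2 fold change of -3.39, Cdkn1a, a cell cycle inhibitor, one of -2.50, Gadd45a, a stress protein acting below Hdac4, one of -2.02 and embryonic myosin Myh3 one of -1.66. Perinatal myosin Myh8 had 129 TPM with vehicle and 134 TPM with BML-260, with a log2 fold change of 0.17 (edgeR, Benjamini-Hochberg adjusted p = 0.865).

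**Figure D4:**
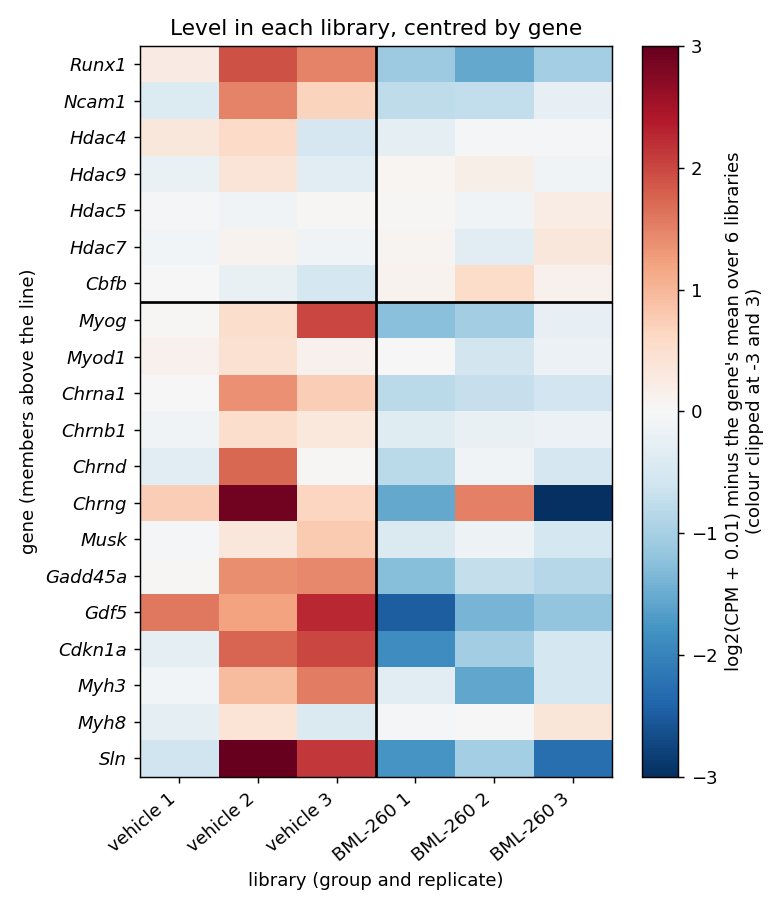
Log2(CPM + 0.01) of the 7 members (above the line) and 13 of the 14 denervation response genes in each library, minus the gene's mean over the 6 libraries, with color clipped at -3 and 3. Runx1, Chrna1 and Gadd45a are high in vehicle replicates 2 and 3, near their mean in vehicle replicate 1 and low in the 3 BML-260 libraries.

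The order of the vehicle libraries was shared by many genes of this list. In CPM, vehicle replicate 1 was the lowest vehicle library for Runx1 and Ncam1 and for 10 of the 14 listed genes, beside 31.7% of all tested genes. All BML-260 libraries lay below vehicle replicate 1, and that library below the other vehicle libraries, for Runx1 and for 8 of the 14 genes (Myog, Chrna1, Chrnb1, Musk, Gadd45a, Cdkn1a, Myh3 and Sln), beside 3.79% of all tested genes. This order includes the group difference that the rule used for Runx1 and that was known when the list was written. Of all tested genes, 1118 were lower with BML-260 without overlap, and 613 of these had this order. In the list 10 genes were lower without overlap, and 8 of these had it. Nothing is read from these shares. The genes also share the 6 libraries, so they are not independent replicates of this order.

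By their pattern over the 6 libraries, the 3 genes nearest to Runx1 were Rrm2, Hsf2bp and Ms4a14, among 13577 tested genes with a curated symbol. The measure was the root mean square difference of log2 CPM after each gene was centred on its mean, which was 0.36, 0.38 and 0.40 for these genes and 1.34 in the median over all genes compared. Rrm2, the small subunit of ribonucleotide reductase, had a TPM of 0.775, 1.82 and 3.01 with vehicle and 0.304, 0.359 and 0.235 with BML-260. The genes nearest to Ncam1 were Arpp21, Tiam2 and Chrna1, with differences of 0.12, 0.21 and 0.22 and a median of 0.86. Arpp21 had a TPM of 1.77, 6.17 and 5.35 with vehicle and 1.45, 1.42 and 1.87 with BML-260. Ncam1 was nearer to Chrna1 than to Runx1, from which it differed by 0.66. The genes nearest to Cbfb were Snupn, Cdk7 and Ppat (0.064 to 0.074, median 0.40), and those nearest to Hdac4 were Ebpl, Arrdc1 and Hoxa5 (0.11 to 0.12, median 0.44). Hdac5, Hdac7 and Hdac9 varied over less than 1 on the log2 scale and were not searched.

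Of 17 kinases and 14-3-3 proteins that control where these enzymes reside in the cell, 1 was higher and 1 was lower at the threshold, beside 5.75% of all tested genes in both directions together, and the median log2 fold change was -0.024. The lower gene was Sik1, a salt-inducible kinase that phosphorylates class IIa HDACs, with a TPM of 8.96, 9.97 and 36.1 with vehicle and 3.39, 4.34 and 6.49 with BML-260. Its log2 fold change was -1.67 with a standard error of 0.41 (edgeR, Benjamini-Hochberg adjusted p = 0.623). The higher gene was Camk2g, a calcium/calmodulin-dependent kinase, with a TPM of 68.9, 54.2 and 46.8 with vehicle and 69.5, 88.1 and 90.8 with BML-260 and a log2 fold change of 0.64. Both genes still passed the threshold without vehicle replicate 3, with -1.03 for Sik1 and 0.40 for Camk2g. Of 8 partners that bind class IIa HDACs, among them MEF2 factors and the corepressor Ncor1, 0 passed the threshold and 0 had an unadjusted p under 0.05 in edgeR, and the smallest p belonged to Mef2d, with a log2 fold change of 0.27. Of 7 histone deacetylases of other classes, of which Hdac3 is also among the partners, 0 passed and 0 had an unadjusted p under 0.05, and Hdac11 and Hdac3 came nearest, with 0.44 and 0.24.

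Of the 3 genes repressed when Hdac4 is active, 0 passed the threshold in edgeR and 0 had an unadjusted p under 0.05. Dach2, the repressor of Myog, had a TPM of 2.23, 1.88 and 1.76 with vehicle and 2.09, 3.00 and 1.51 with BML-260, so the groups overlapped, and a log2 fold change of 0.29 with a standard error of 0.29 (edgeR, Benjamini-Hochberg adjusted p = 0.817). Pfkm, a phosphofructokinase, had a log2 fold change of 0.45. Without vehicle replicate 3 the log2 fold changes were 0.14 for Pfkm and 0.075 for Dach2.

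Of 9 relatives and cofactors of Runx1, 3 passed the threshold, all lower, beside 4.86% of all tested genes in that direction. The relative Runx2 had a TPM of 0.321, 0.358 and 0.771 with vehicle and 0.289, 0.162 and 0.166 with BML-260, which was below Runx1 in all 6 libraries. Runx3 had 14 to 17 counts in the vehicle libraries and 4 to 6 in the BML-260 libraries. Neither Runx2 (-0.61) nor Runx3 (-1.63) passed the threshold without vehicle replicate 3. Runx1t1, a corepressor known as a fusion partner of Runx1 in leukemia, had a log2 fold change of -0.51. The corepressors Tle1, Tle3, Tle4 and Sin3a had log2 fold changes between -0.083 and 0.026. The median over the list was -0.070.

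Of 9 tested genes related to Ncam1 by sequence, polysialylation or function, 1 passed the threshold, beside 5.75% of all tested genes. This was Vcam1, an adhesion molecule of satellite and vessel cells, with a log2 fold change of -0.49. St8sia4, one of the enzymes that add polysialic acid to Ncam1, had 2.60 to 3.78 TPM per library and a log2 fold change of 0.087. Its relative St8sia2 had 2 to 27 counts and Ncam2 0 to 11, and both were below the filter.

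**Figure D5:**
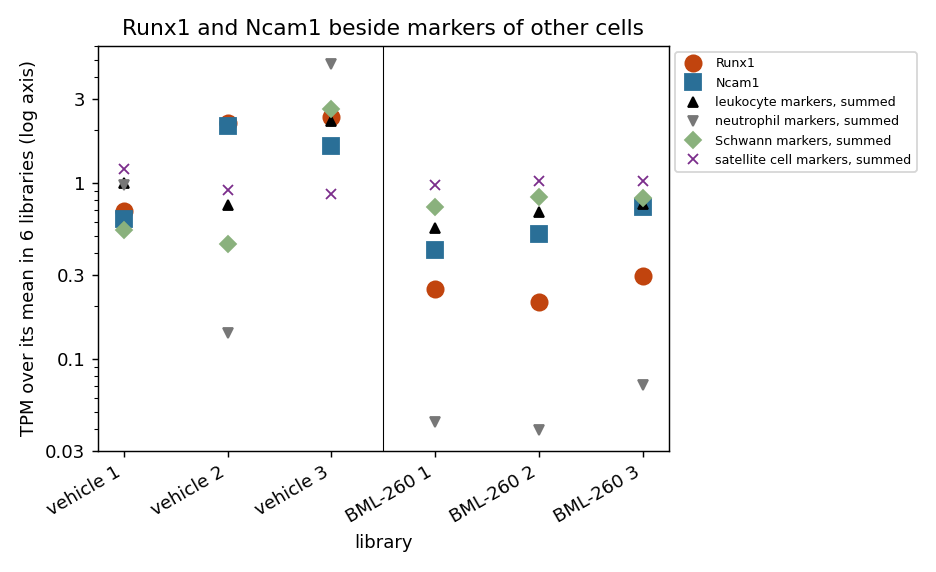
TPM of Runx1 and Ncam1, and the summed TPM of leukocyte, neutrophil, Schwann cell and satellite cell markers, each divided by its mean over the 6 libraries, on a log axis. In vehicle replicate 2 Runx1 and Ncam1 are well above their means. The leukocyte, neutrophil and Schwann sums are below their means there, but vehicle replicate 3 raises these means (71.3, 799 and 64.1 TPM). The neutrophil sum in vehicle replicate 2 (23.6 TPM) is above the BML-260 range (6.67 to 11.9 TPM). The leukocyte sum in that library is held down by Cd68.

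Whole muscle holds other cells that use the same genes, and in these bulk samples fewer cells of a type and less RNA per cell cannot be told apart. Of 7 tested leukocyte markers, 6 passed the threshold, all lower with BML-260 as Runx1 was, beside 4.86% of all tested genes in that direction. The sum over the 7 markers was 31.6, 23.7 and 71.3 TPM in vehicle replicates 1, 2 and 3, and 17.6 to 24.1 TPM with BML-260. In CPM all 7 were highest in vehicle replicate 3, whereas Runx1 was highest in vehicle replicate 2. Without vehicle replicate 3, 6 of 7 still passed, beside 2.92% of all genes tested then as lower. Their median log2 fold change was -0.70 in place of -1.08. Ptprc, the common leukocyte antigen, had 2.71, 3.16 and 6.73 TPM with vehicle and 1.74, 2.09 and 1.45 TPM with BML-260. The lymphocyte marker Cd3e had at most 8 counts in a library. In vehicle replicate 2, where Runx1 was high, the leukocyte sum was 23.7 TPM, within the BML-260 range. This sum was held down by Cd68, at 2.02 TPM in that library and 4.04 to 10.4 TPM with BML-260, and the other 6 tested markers were above the BML-260 range there. The 4 tested neutrophil markers all passed the threshold as lower, beside 4.86% of all tested genes. The 3 of them with TPM values summed to 23.6 to 799 TPM with vehicle and 6.67 to 11.9 TPM with BML-260. Ly6g, which was not tested, had 0 counts in 5 of the 6 libraries. The 4 tested markers were also highest in vehicle replicate 3, and all 4 still passed without it, with a median log2 fold change of -3.47 in place of -4.90. The part of these cells in the Runx1 result was not tested.

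Of 6 Schwann cell markers 0 passed the threshold, and 0 had an unadjusted p under 0.05 in edgeR. Their sum was 13.2, 11.01 and 64.1 TPM with vehicle and 17.9 to 20.4 TPM with BML-260, and it was lowest in vehicle replicate 2, where Ncam1 was highest. Vehicle replicate 3 was then left out, a choice made after seeing the data for all marker lists. Of the 6 markers 2 passed as higher with BML-260, among them Mbp (0.44), beside 1.06% of all genes tested then. Of 5 satellite cell markers 0 passed, again with 0 at an unadjusted p under 0.05 in edgeR, and their sum was 6.77 to 9.33 TPM with vehicle and 7.59 to 8.02 TPM with BML-260, most of it from Chodl, with Pax7 at 0.186 to 0.517 TPM. The part of these cells in the Ncam1 result was not tested. For Hdac7, the 7 endothelial markers summed to 78.3 to 110 TPM with vehicle and 71.7 to 93.01 TPM with BML-260, with 0 passing the threshold and 0 at an unadjusted p under 0.05 in edgeR.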

How the data were processed

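Per the labels, total RNA of the TA muscle was made into libraries with a stranded total RNA kit, 1 library per sample. The authors trimmed reads with Trimmomatic 0.38, mapped them with HISAT2 2.1.0 and Bowtie2 2.3.4.1 to mm10, assembled transcripts with StringTie 2.1.3b, and deposited raw counts per gene and TPM per library. The counter, the annotation release and the strand setting are not given in the sources used here. The deposited TPM tables list 16800 genes. Other symbols came from RefSeq for GRCm38.p6, in which 45679 of the 45777 identifiers were found.

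Counts were tested in R 4.3.3 with edgeR 4.0.16 (filterByExpr, TMM, quasi-likelihood test, Benjamini-Hochberg adjustment). The tested genes held 99.95% of all counts. Standard errors are the log2 fold change divided by the square root of F. Alternatives used DESeq2 1.42.0, apeglm 1.24.0 and limma 3.58.1. Log2 CPM used a prior count of 2. Figures were drawn with matplotlib 3.10.9. The study's methods give 3 mice per group, so p-values measure the spread between these animals.

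Genes named are the 7 members, the genes of each list at the threshold or otherwise the 2 with the smallest p, and the 3 nearest in pattern to each member whose log2 CPM ranged over more than 1. Others were named after their values were seen. A few listed genes count in the totals but are not reported here by name. The members and lists were chosen with earlier results of these data known.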

Additional observations from a re-analysis of the deposited data

How the results depend on the processing

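The 7 members had 14 alternatives each. The sign was kept in all 14 for Runx1, Cbfb, Hdac4 and Ncam1, in 12 for Hdac5, 13 for Hdac7 and 11 for Hdac9. With apeglm the log2 fold change was 0.00337 for Cbfb and -0.00229 for Ncam1, while that of Runx1 was -2.45. Leaving out 1 library each gave ranges of -2.91 to -2.20 for Runx1, 0.36 to 0.65 for Cbfb, -0.58 to -0.099 for Hdac4, 0.00075 to 0.17 for Hdac5, -0.082 to 0.26 for Hdac7, -0.076 to 0.31 for Hdac9 and -1.70 to -0.80 for Ncam1.

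The count of 931 genes at the threshold was 1416 without a filter on low counts, 113 with apeglm and 446 with limma on log2(TPM + 1), and 503 (without BML-260 replicate 2) to 2223 (without vehicle replicate 1) with 1 library left out. The count at an adjusted p under 0.05 was 1 without a filter, 1 with at least 10 counts in every library, 95 with DESeq2 and with apeglm, and 0 to 9 with 1 library left out. The 11 denervation response genes were 5 with apeglm and 9 to 12 with 1 library left out, and the 19 genes at the threshold over all pathway lists were 6 with apeglm and 11 (without BML-260 replicate 3) to 24 (without vehicle replicate 1). The cause of these shifts was not tested. With the replicate block the count was 1057 (326 higher and 731 lower), and the log2 fold change was -2.43 for Runx1 and -1.16 for Ncam1. The labels do not pair the replicate numbers: correlations of deviations were 0.16, 0.054 and 0.11 for numbers 1, 2 and 3, although each library correlated best with its own number. With 3 libraries per group, an exact permutation test of 1 gene cannot give a 2-sided p below 0.1.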

Other observations

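Other marker lists showed where vehicle replicate 3 differed from the remaining libraries. The summed TPM of 3 adipocyte markers was 181 in vehicle replicate 3 and 7.98 to 10.4 elsewhere, and that of 3 erythroid markers was 5866 and 1089 to 1445. The 5 fibroblast markers summed to 273 to 786 TPM with vehicle and 312 to 531 TPM with BML-260. At the threshold 1 adipocyte, 2 erythroid and 1 fibroblast marker were lower with BML-260, beside 4.86% of all tested genes, and 0 were higher. Without vehicle replicate 3, an alternative chosen after seeing the data, 0 adipocyte, 1 erythroid and 0 fibroblast markers passed.

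Slow fiber genes were also highest in vehicle replicate 3, for 6 of the 7 genes listed. The sum was 652 TPM in that library, 78.0 and 83.7 TPM in the other vehicle libraries and 76.1 to 166 TPM with BML-260. Myl2, the slow regulatory light chain, had 423 TPM in vehicle replicate 3 and 2.89 to 46.7 TPM in the remaining libraries. Of the 7 genes 2 passed the threshold, both lower, beside 4.86% of all tested genes in that direction. These were Tnni1, with a log2 fold change of -1.57, and Atp2a2, with one of -0.96. Without vehicle replicate 3, Tnni1 did not pass (-0.63) and Atp2a2 passed with -0.38. Then 4 genes turned from lower to higher and passed, beside 1.06% of all genes tested in that direction. These were Myh7 (-1.28 to 2.92), Myl2 (-1.82 to 3.11), Tnnc1 (-1.43 to 0.69) and Tnnt1 (-1.03 to 0.74).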
